A study of Mus musculus with 6 samples.

Results

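The Sfi1 locus is described here as the stretch of mouse chromosome 11 from chr11:3030001-3110000 (genome build mm9), which holds 1335 of the 10025464 CpG cytosines in the table, or 711 of 8610279 CpGs. The stretch was chosen by position, with earlier results of the same 6 samples in view in which 1 kb tiles of it differed between Tex15KO and the other genotypes. The levels in Tex15KO are therefore given as a description, with no test. Divided into tiles of 1 kb, the stretch held 69 tiles with 3 or more CpGs and 10 or more calls per sample, of 330110 such tiles in the table. Within it, 3 adjacent tiles were methylated at 68.4 to 72.2% in the 4 pups that carried a working Tex15 copy and at 28.0 and 22.8% in the 2 Tex15KO pups, while the rest of the deeply read part of the locus lay at 58.8 to 63.8% and at 65.2 and 64.4%.

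Genomic DNA of male germ cells from 6 mouse pups at postnatal day 2.5 was read by whole-genome bisulfite sequencing, in which an unmethylated cytosine is read as T and a methylated one as C. The germ cells had been sorted by green fluorescence of an Oct4-GFP reporter, which all 6 pups share, and all were male on a mixed strain background. The 3 groups of 2 pups were Tex15WT (wild type, pups 8 and 9), Tex15HT (1 disrupted copy of Tex15, pups 7 and 18) and Tex15KO (both copies disrupted, pups 3 and 16). The study asks where the germ cell genome is methylated when Tex15 is missing, and the 4 pups of Tex15WT and Tex15HT are called controls below. Where the pups of a genotype are given as a pair of values, the order is that of their numbers (8 then 9, 7 then 18, 3 then 16). How the Tex15 allele was disrupted is not given in the sources used here, and genotype and cell type were taken from the labels, since methylation calls hold no expression to check them with.

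Sfi1 encodes a centrin-binding protein of the centrosome that takes part in building the spindle. It is known as a multicopy gene in mice, and where an assembly holds fewer copies than the genome, reads of all copies pile up at the same place. Male germ cells erase most of their DNA methylation in the embryo and set it again in the prospermatogonia before and around birth, and TEX15 is a germ cell protein that acts with the PIWI pathway in directing such methylation to retrotransposons.

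RefSeq gives 6 promoter sequences (250 bases before to 50 bases after a transcript's start) for the genes that begin inside this stretch or beside it, none of them for Sfi1 itself. Of these, 3 could be placed on the mm9 table by the distances between their CpGs. The 2 below are shown because 1 lies in methylated and 1 in unmethylated sequence and both place the tiles along the gene. Each is from RefSeq on build GRCm38.p6, plus strand, written 5′ to 3′ with every CpG in capitals.

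Gm33862, chr11:3136826-3137125: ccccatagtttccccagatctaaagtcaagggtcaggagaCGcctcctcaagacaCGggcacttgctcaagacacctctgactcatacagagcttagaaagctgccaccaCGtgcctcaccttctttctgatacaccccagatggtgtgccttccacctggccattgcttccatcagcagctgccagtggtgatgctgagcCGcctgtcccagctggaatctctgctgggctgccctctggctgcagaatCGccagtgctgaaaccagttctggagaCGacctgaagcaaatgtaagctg

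Eif4enif1, chr11:3202103-3202402: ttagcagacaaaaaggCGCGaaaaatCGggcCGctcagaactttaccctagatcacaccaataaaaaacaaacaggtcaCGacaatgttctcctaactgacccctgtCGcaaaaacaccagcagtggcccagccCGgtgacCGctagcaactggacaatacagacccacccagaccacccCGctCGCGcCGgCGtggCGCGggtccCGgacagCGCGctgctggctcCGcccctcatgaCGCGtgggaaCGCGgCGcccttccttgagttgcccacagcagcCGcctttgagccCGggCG

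The first sequence starts Gm33862, a long noncoding RNA, and all 6 of its 6 CpGs matched the table at chr11:3036829-3037128 of mm9, inside the stretch of high depth. Methylation over these 6 CpGs was 76.2 and 72.1% in the Tex15WT pups, 73.2 and 76.2% in the Tex15HT pups, and 72.6 and 78.7% in the Tex15KO pups, so both Tex15KO values lay within or just above the range of the controls. The second sequence starts Eif4enif1, which encodes a transporter of the translation factor eIF4E. Of its 27 CpGs, 17 matched at chr11:3102106-3102405 of mm9, and these were all 17 CpGs of the table there. They were nearly free of methylation in every sample, from 0 to 4.82% in the controls, 3.41% in Tex15KO 3 and 1.79% in Tex15KO 16, on 51 to 88 calls, and the 0 of Tex15WT 8 allows up to 5.88%. CpGs were found in 94.6% of the 32851 promoter sequences of the RefSeq table, with a median of 7 per sequence. Both matches lie inside the span that RefSeq gives for Sfi1.

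Depth divided the locus into 2 parts. In 70 of its 80 tiles, from chr11:3030001-3100000, a cytosine had 15.6 to 79.5 calls on average over the 6 samples, with a median of 53.9, whereas the median tile of the table had 2.88. The other 10 tiles, from position 3100001 onward, had 2.06 to 5.33 calls per cytosine. The first 70 tiles are called the deep part below, and they hold 642 of the 711 CpGs. The mean depth per cytosine of the deep part was 13.9 and 14.9 times that of the table in the Tex15WT pups, 15.3 and 14.99 times in the Tex15HT pups, and 11.2 and 13.7 times in the Tex15KO pups, lowest in Tex15KO 3. A methylation level here is thus an average over the cells of 1 pup and over all copies that share the sequence, and how many copies a pup carried, or which of them a call came from, was not measured.

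The high depth continued for 4 more tiles before the start of the stretch. The last tile before it, chr11:3029001-3030000, was methylated at 76.1 to 79.4% in the controls, 84.0% in Tex15KO 3 and 78.2% in Tex15KO 16. The first tile inside it, chr11:3030001-3031000, lay at 77.3 to 87.1% in the controls, 76.3% in Tex15KO 3 and 81.5% in Tex15KO 16. At the other end the last tile inside, chr11:3109001-3110000, had 3 CpGs and at most 10 calls per sample, with none in Tex15KO 3, and the tile after it held no CpG of the table.

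**Figure D1:**
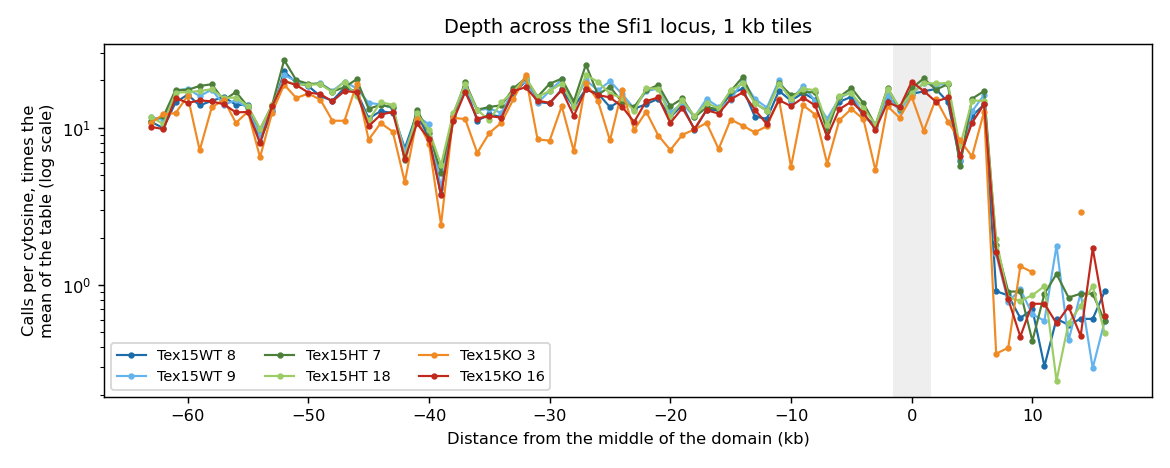
Depth across the Sfi1 locus: mean number of calls per cytosine in each 1 kb tile (log scale) against the distance in kb from the middle of the 3 tiles with low levels in Tex15KO (grey band). Each point is divided by the mean of the table in that sample. All 6 samples drop at the same tile boundary, and depth in the grey band is like that of the tiles beside it.

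Depth was compared between genotypes as well, since the choice of the locus did not use differences in depth. Of all calls of a pup, 0.174 and 0.187% fell in the locus in the Tex15WT pups, 0.193 and 0.188% in the Tex15HT pups, and 0.141 and 0.172% in the Tex15KO pups. Both Tex15KO pups lay below all 4 controls, with a mean difference of -0.0288 percentage points (two-sided exact permutation test, p = 0.0667, the smallest that 2 against 4 samples can give, so this design cannot reach 0.05). The gap between Tex15KO 16 and Tex15WT 8 was smaller than that between the Tex15WT pups. Tex15KO 3 also stood apart over the whole table, where 74.4% of its cytosines had no call against 1.71 to 10.2% in the other samples. In the deep part that share was 4.55% in Tex15KO 3 against 0 to 0.399%. The part of this uneven coverage in the lower share of the locus was not tested. The difference was -0.0134 percentage points without Tex15KO 3 and -0.0443 without Tex15KO 16. Over cytosines with a call in every sample, Tex15KO 16 had the highest share of all 6 pups, 0.468%, and Tex15KO 3 the lowest, 0.195% (exact permutation test, p = 0.333). Tex15HT exceeded Tex15WT by 0.00975 percentage points, with no overlap of the pairs (exact permutation test, p = 0.333, the smallest that 2 against 2 samples can give).

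Over the whole locus, methylation was 64.9 and 60.2% in the Tex15WT pups, 64.1 and 61.9% in the Tex15HT pups, and 58.8 and 57.2% in the Tex15KO pups. The Tex15KO mean lay -4.78 points from the mean of the controls, and the lowest control, Tex15WT 9, was closer to Tex15KO 3 than to Tex15WT 8. With each cytosine weighing the same, the difference was -2.86 points. Without cytosines in the top 0.1% of coverage in any sample, it was 1.56 points. This leaves 150 of the 1335, since the limit was 13 to 35 calls depending on the sample. That value thus describes shallow cytosines and not the deep part. The small difference over all 1335 was the sum of opposite ones inside the locus. In 3 adjacent tiles, chr11:3092001-3095000, the levels in Tex15KO were far lower, and in the rest of the deep part they were slightly higher. The 3 tiles are called the domain below. It was delimited by the values in Tex15KO, as the tiles in which both Tex15KO pups lay more than 30 points below every control.

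In the domain, which holds 82 CpGs, methylation was 72.2 and 69.9% in the Tex15WT pups (8489 and 8715 calls), 71.6 and 68.4% in the Tex15HT pups (9507 and 10724 calls), and 28.0 and 22.8% in the Tex15KO pups (6414 and 15587 calls). The 4 controls lay within 4 points of each other, and both Tex15KO pups lay more than 40 points below the lowest of them. The widest of the 6 intervals for counting error (95%, Wilson) was that of Tex15KO 3, from 26.9 to 29.1%. Such intervals take the calls as independent, so they can be too narrow. As means with SD over 2 pups, Tex15WT had 71.0% ± 1.65, Tex15HT 70.0% ± 2.30 and Tex15KO 25.4% ± 3.68, which puts Tex15KO -45.1 points from the controls. In the rest of the deep part (560 CpGs), the level was 63.8 and 58.8% in the Tex15WT pups, 62.96 and 61.0% in the Tex15HT pups, and 65.2 and 64.4% in the Tex15KO pups. There both Tex15KO pups lay above every control, by 3.16 points on average. The shallow flank was mixed: its tile with the Eif4enif1 promoter, chr11:3102001-3103000, holds 32 of the 69 CpGs and lay at 0 to 3.23% in every sample, while the 6 tiles from 3104001 onward had control means of 83.3 to 95.8%. On 185 to 300 calls the whole flank lay at 21.2 to 25.3% in the controls, 16.5% in Tex15KO 3 and 32.7% in Tex15KO 16, but Tex15KO 3 had no call at 61.0% of its cytosines, among them all of 5 of those 6 tiles, so these pooled values cover different CpGs and are not compared. The whole table lay at 64.2 to 65.3% in the controls, 68.4% in Tex15KO 3 and 65.7% in Tex15KO 16.

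**Figure D2:**
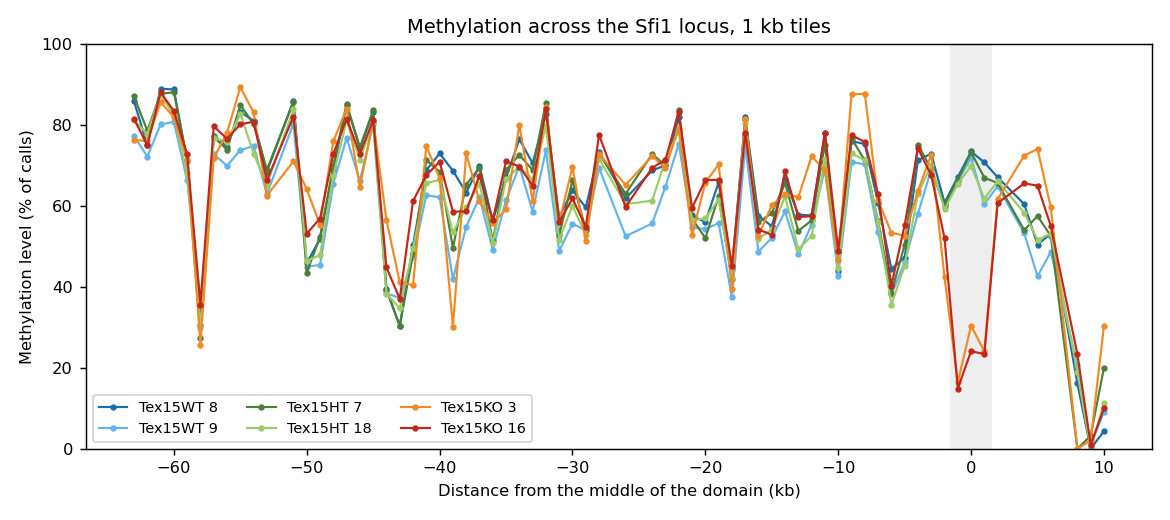
Methylation level (percent of calls) of the 69 tested 1 kb tiles of the Sfi1 locus in each of the 6 pups, against the distance in kb from the middle of the domain (grey band). In the band both Tex15KO pups lie between 14.9 and 30.4% and the controls between 60.5 and 73.4%, while in most other tiles the lines of the 6 pups cross.

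The 3 tiles of the domain differ in CpG content but not in this pattern. The tile chr11:3092001-3093000 (15 CpGs) was methylated at 67.1 and 66.1% in the Tex15WT pups, 66.5 and 65.5% in the Tex15HT pups, and 16.4 and 14.9% in the Tex15KO pups, each on at least 951 calls. The tile chr11:3093001-3094000 holds 60 CpGs, and its levels were 73.4 and 71.9% in the Tex15WT pups, 73.2 and 69.8% in the Tex15HT pups, and 30.4 and 24.1% in the Tex15KO pups on at least 5097 calls. The tile chr11:3094001-3095000 (7 CpGs) lay at 70.7 and 60.5% in the Tex15WT pups, 67.0 and 61.8% in the Tex15HT pups, and 24.04 and 23.4% in the Tex15KO pups. The differences between Tex15KO and the controls were -50.7, -44.8 and -41.3 points in that order, and the levels of the controls were 4.24, 2.64 and 2.74 times those of Tex15KO. In 1 kb tiles over the rest of the table, 741 held 60 CpGs or more; 740 of these were methylated at under 20% in the controls, and the 1 tile over 50% differed by 1.22 points in Tex15KO. The middle tile of the domain thus combined a CpG content that elsewhere went with low levels and a level above 50% in every control.

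Both Tex15KO pups lay below all 4 controls in 5 of the 69 tested tiles, the 5 adjacent ones from chr11:3091001-3096000. Over all 330110 tested tiles of the table this share was 4.32%. They lay more than 30 points below in 3 tiles, the domain, against 0.456% of the table. They lay above all 4 controls in 14 tiles (8.24% of the table), in none by more than 30 points (0.0194%). The locus was chosen with this contrast in view, so nothing is read from these shares. Without Tex15KO 16, 18 tiles were below (19.1% of the table in that setting) and 27 above (26.9%), and without Tex15KO 3, 25 were above (12.8%). The tile before the domain, chr11:3091001-3092000 (6 CpGs), lay at 59.1 to 60.8% in the controls, 42.4% in Tex15KO 3 and 52.1% in Tex15KO 16. The tile after it, chr11:3095001-3096000 (9 CpGs), lay at 64.9 to 67.1% in the controls, 61.7% in Tex15KO 3 and 60.7% in Tex15KO 16.

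At steps of 250 bases the edges were steep. Between positions 3091251 and 3091500 the levels overlapped, at 35.0 to 41.6% in the controls, 34.5% in Tex15KO 3 and 35.5% in Tex15KO 16. Between 3091501 and 3091750 they parted, at 74.7 to 79.8% in the controls, 38.1% in Tex15KO 3 and 56.9% in Tex15KO 16. The lowest levels in Tex15KO were reached between 3092251 and 3092500, at 6.70% in Tex15KO 3 and 8.78% in Tex15KO 16 against 63.1 to 68.3% in the controls. On the far side, between 3094501 and 3094750, Tex15KO 3 lay at 25.2% and Tex15KO 16 at 31.1% against 62.4 to 79.3% in the controls, and between 3095001 and 3095250 the Tex15KO pups were at 56.8 and 55.6% against 64.7 to 67.9%. Between 3095501 and 3095750 the groups overlapped again, with 61.4% in Tex15KO 3, 64.3% in Tex15KO 16 and 57.3 to 66.6% in the controls.

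**Figure D3:**
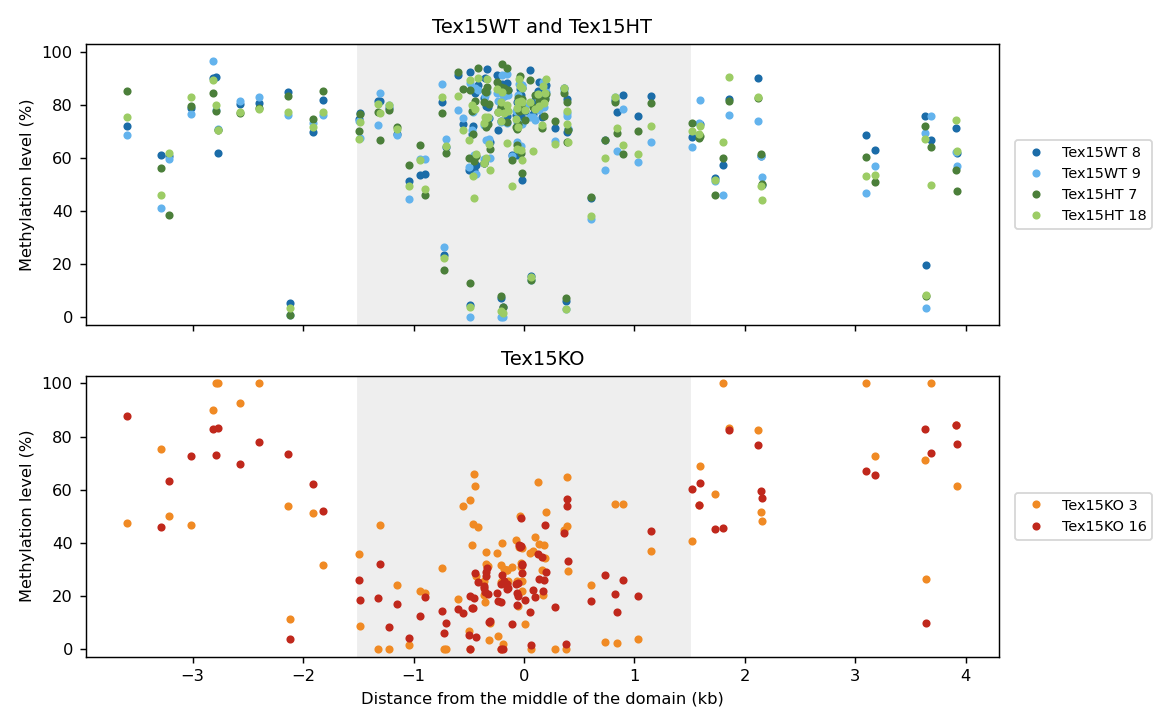
Methylation level of single CpGs with at least 10 calls in every sample, within 4 kb of the middle of the domain (grey band), for the 4 controls (top) and the 2 Tex15KO pups (bottom). In the band 74 of 81 CpGs lie above 50% in the pooled controls, and 79 of 81 have a Tex15KO mean below 50%.

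Single CpGs set finer limits. Among CpGs with at least 10 calls in each sample, those with both Tex15KO pups below every control ran from position 3091588 to position 3095088, 3502 bases with 85 such CpGs, of which 81 were below. Those more than 30 points below ran from 3092003 to 3094537. The CpG before the run, at 3091380, was already low in the controls, at 0.694 to 5.34%, and lay at 11.3% in Tex15KO 3 and 3.61% in Tex15KO 16. The CpG after it, at 3095097, lay at 68.3 to 82.0% in the controls, 69.0% in Tex15KO 3 and 62.7% in Tex15KO 16. Of the 81 CpGs of the domain with enough calls, 77 were below all controls in both Tex15KO pups (17.3% of the 6601 such CpGs of the table). More than 30 points below were 53 of them (2.47% of the table). The domain was delimited by its low levels in Tex15KO, so high counts were bound to follow and nothing is read from them. The shares of the table also include the CpGs of the domain. Outside the domain, 22 of 509 CpGs of the deep part were below and 86 were above (8.09% of the table above).

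The CpGs of the domain kept a spread of levels in every pup. The middle 50% of them lay at 68.9 to 83.8% and 66.0 to 83.3% in the Tex15WT pups and at 64.9 to 82.3% and 62.7 to 81.0% in the Tex15HT pups. In Tex15KO 3 they lay at 16.2 to 39.3% and in Tex15KO 16 at 15.4 to 28.0%. The levels in Tex15KO were thus low but not at 0: 23 of 81 CpGs were under 20% in Tex15KO 3 and 35 in Tex15KO 16. The median difference between the 2 pups at a CpG was 4.76 points in Tex15WT, 5.02 in Tex15HT and 8.54 in Tex15KO. Across CpGs, the mean of the controls and the mean of Tex15KO had a Pearson correlation of 0.606 in the domain (81 CpGs) and 0.939 in the rest of the deep part (509 CpGs), and CpGs next to each other share reads and copies, so this describes the 6 libraries only.

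The 3 cytosines of the tile chr11:3092001-3093000 with the largest decreases were at 3092906 on the reverse strand and at 3092283 and 3092284, the 2 strands of 1 CpG. At 3092906, the level was 88.9 and 80.0% in the Tex15WT pups, 89.8 and 89.8% in the Tex15HT pups, and 0 and 15.7% in the Tex15KO pups on 35 and 70 calls. A count of 0 among 35 calls allows a level of up to 8.57% (3 counts of the total, counting error only). That limit takes the calls as independent, which calls of 1 copy or PCR product are not, so it can be too low. How many distinct molecules Tex15KO 3 holds was not measured, and 74.4% of its cytosines in the table had no call. At 3092284 it was 80.0 to 83.3% in the controls, 0% of 62 calls in Tex15KO 3 and 8.18% of 110 calls in Tex15KO 16. The smallest differences of that tile were at the CpG of 3092777 and 3092778, where the controls themselves lay at 12.5 to 35.1%, Tex15KO 3 at 0% and Tex15KO 16 at 5.81 and 6.25%. Both Tex15KO pups lay below every control at each of these cytosines. At 3092778 the gap was thin, with 4 of 32 calls methylated in Tex15HT 7 and 5 of 80 in Tex15KO 16. The tile was picked for having the largest decrease, so lower levels at its cytosines were to be expected and nothing is read from them.

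In the domain, 5 CpGs were under 20% in the pooled controls, at positions 3093015, 3093294, 3093313, 3093561 and 3093878. Of these, 3093561 was methylated at 14.2 to 15.4% in the controls, at 0% in Tex15KO 3 and at 1.36% in Tex15KO 16, and at 3093878 both Tex15KO pups lay below the controls too. At the other 3 the groups overlapped, with controls from 0 to 13.0% and Tex15KO pups from 0 to 1.64%. The rest of the deep part held 75 such CpGs among 509. A copy that carries TG in place of CG adds calls that are read as unmethylated, and the part of such sequence differences in these levels was not tested. Without the 5 low CpGs, the domain lay at 75.9 and 73.3% in the Tex15WT pups, 74.8 and 72.0% in the Tex15HT pups, and 29.7 and 24.1% in the Tex15KO pups, and 75 of the other 76 CpGs were below all controls in both Tex15KO pups. The exception was 3093045, at 45.1 to 61.1% in the controls, 65.9% of 44 calls in Tex15KO 3 and 19.2% of 177 calls in Tex15KO 16. Since the domain was delimited by its low levels in Tex15KO, the 75 of 76 were bound to be many, and nothing is read from them. Over the table the share was 17.3% of 6601 CpGs.

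**Figure D4:**
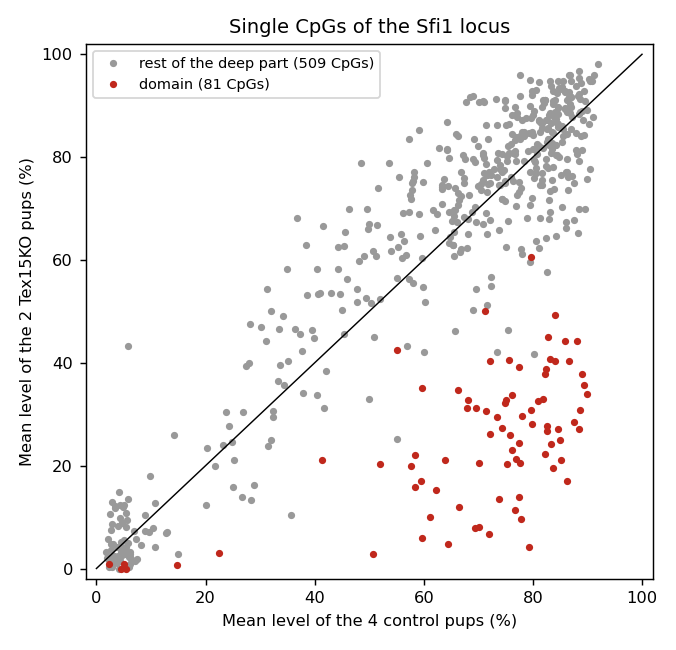
Mean level of the 2 Tex15KO pups against the mean level of the 4 controls at single CpGs of the deep part of the Sfi1 locus with at least 10 calls in every sample (red, 81 CpGs of the domain; grey, 509 CpGs of the rest; line, equal levels). The grey points follow the line over its whole length, while the red points lie below it whatever their level in the controls.

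The 2 strands of a CpG are read from separate DNA strands and were compared over the 80 CpGs of the domain read on both. In Tex15KO 3 the forward strand lay at 34.7% and the reverse strand at 22.0%, and in Tex15KO 16 they lay at 22.0 and 24.1%. In each control the strands differed by at most 1.498 points. The gap of 12.7 points in Tex15KO 3 was larger than any other, and both of its strands lay more than 30 points below every control. In the rest of the deep part its strands also differed most, at 68.0 and 63.4%.

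The number of calls in the domain was compared between genotypes too. Of all calls of a pup, 0.0257 and 0.0257% fell in the domain in the Tex15WT pups, 0.0278 and 0.0262% in the Tex15HT pups, and 0.0233 and 0.0294% in the Tex15KO pups, which were the lowest and the highest (difference 3.9e-05 percentage points, two-sided exact permutation test, p = 1). In the rest of the deep part both Tex15KO pups had fewer calls than every control, 0.117 and 0.142% against 0.148 to 0.164% (exact permutation test, p = 0.0667, the smallest possible). As a share of the calls of the deep part, the domain held 14.8 and 13.8% in the Tex15WT pups, 14.5 and 14.0% in the Tex15HT pups, and 16.6 and 17.2% in the Tex15KO pups. Both Tex15KO pups were above all 4 controls in that share, which was looked at after the levels and got no test.

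Outside the domain, the deep tiles varied widely among themselves. Over the 63 tested ones, the median tile lay between 58.6% (Tex15WT 9) and 68.4% (Tex15WT 8 and Tex15HT 7) in the controls, at 66.8% in Tex15KO 3 and at 66.4% in Tex15KO 16. The difference between Tex15KO and the controls ran from -12.8 to 19.0 points with a median of 2.72, and both Tex15KO pups lay above all controls in 14 tiles and below them in 2. The 4 tiles outside the domain with most calls show how far levels differ along the gene. The tile chr11:3032001-3033000 (13 CpGs) lay at 80.1 to 88.9% in the controls, 85.6% in Tex15KO 3 and 88.0% in Tex15KO 16. The tile chr11:3035001-3036000 (14 CpGs), 3 kb further, lay at 27.5 to 36.4% in the controls, 25.7% in Tex15KO 3 and 35.6% in Tex15KO 16, and the tile chr11:3050001-3051000 (32 CpGs) at 30.3 to 37.3%, 41.1% and 37.1%. In the first of these 3 tiles the Tex15KO values lay within the range of the controls, in the second Tex15KO 3 lay below it, and in the third Tex15KO 3 lay above it. The other of the 4, chr11:3043001-3044000, had both Tex15KO pups above the controls and is given with the increases.

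The largest increases in Tex15KO were smaller than the decreases of the domain. The tile chr11:3098001-3099000 (3 CpGs) lay at 50.4 and 42.6% in the Tex15WT pups, 57.5 and 51.6% in the Tex15HT pups, and 74.1 and 65% in the Tex15KO pups, a difference of 19.0 points on 108 to 364 calls. With each cytosine weighing the same, this difference was 10.97 points, less than the 16.7 of the next tile described. The tile before it, chr11:3097001-3098000 (7 CpGs), differed by 12.5 points, from 53.2 to 60.4% in the controls to 72.4% in Tex15KO 3 and 65.6% in Tex15KO 16. Both of these follow the domain within 4 kb on its far side. The tile chr11:3043001-3044000 (13 CpGs) held more calls, at least 1174 per sample, and lay at 45.9 and 45.0% in the Tex15WT pups, 43.5 and 46.4% in the Tex15HT pups, and 64.1 and 53.2% in the Tex15KO pups. Its controls lay within 3 points of each other, and both Tex15KO pups lay above them by unequal amounts. A decrease that rested on 1 pup was seen in the tile chr11:3054001-3055000 (4 CpGs, 53 to 189 calls), at 42.0 to 68.7% in the controls, 30.2% in Tex15KO 3 and 58.6% in Tex15KO 16.

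Near one of these tiles the locus holds a short tandem array, seen as 12 CpGs spaced exactly 25 bases apart from chr11:3051813-3052088. Over the 12 together, on at least 107 calls per sample, the level was 60 and 57.9% in the Tex15WT pups and 55.2 and 51.25% in the Tex15HT pups. In the Tex15KO pups it was 76.4 and 67.0%, both above every control, by 15.6 points on average. Calls were uneven along the array, so the pooled levels can weigh its CpGs differently in each sample. Of these 12, only the last 2, at 3052063 and 3052088, had 10 or more calls in every sample. At 3052063 the level was 83.3 and 72.0% in the Tex15WT pups, 88.0 and 51.5% in the Tex15HT pups, and 66.7 and 82.5% in the Tex15KO pups, so the groups overlapped. At 3052088 it was 30 and 45.6% in the Tex15WT pups, 32.3 and 28.6% in the Tex15HT pups, and 66.7 and 31.5% in the Tex15KO pups, with Tex15KO 3 above all controls and Tex15KO 16 among them.

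Copies of the locus elsewhere in the assembly were sought by the spacing of CpGs, with each run of 6 successive CpGs taken as a pattern of 5 distances. Of 82 patterns of the domain, 9 occurred elsewhere, at 20 places on 12 chromosomes, with no more than 1 pattern at any place. The CpGs at those places lay at 0.635 to 1.58% in the controls, 2.49% in Tex15KO 3 and 1.42% in Tex15KO 16, so they did not resemble the domain in level. Of 544 patterns of the rest of the deep part, 8 occurred at 57 other places, at most 2 at 1 place, methylated at 61.6 to 66.3% in the controls, 68.3% in Tex15KO 3 and 61.1% in Tex15KO 16. Most of these places came from 2 overlapping patterns of 1 short stretch, 4-8-4-19-17 (from 3086279, at 35 places) and 8-4-19-17-14 (from 3086283, at 29). These levels thus describe mainly that short stretch and not copies of the deep part. No place found outside the locus carried 2 patterns of the domain. A run is found only where all 6 of its CpGs are in the table with no other between them, so copies can be missed. Which repeat, if any, the domain belongs to was not tested.

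The heterozygous pups were compared with the wild type pups by test, since that contrast was not used to choose the locus. The locus level differed by 0.446 points between Tex15HT and Tex15WT (two-sided exact permutation test, p = 1, smallest possible 0.333; the sign turned without Tex15WT 9, to -1.92, and without Tex15HT 7, to -0.618), and the domain level by -1.05 points (p = 0.667). Of the 69 tested tiles, edgeR's quasi-likelihood test called 0 at an adjusted p under 0.05, and no tile had an unadjusted p under 0.05 in either direction (0 lower, 0 higher). The same counts came from limma. Such an unadjusted p was found in 0.537% of all tested tiles with edgeR and in 1.57% with limma. The 0 of 69 lies near those shares and is not read as equal levels in the 2 genotypes. Over the table edgeR called 0.00121% of tiles lower and 0% higher in Tex15HT. In 63 tested deep tiles outside the domain the difference between Tex15HT and Tex15WT ran from -4.89 to 8.05 points with a median of 1.17. In simulated data of this contrast, edgeR recovered 60.5% of 200 tiles changed by 40 points among 20000. The simulated counts held counting error only and no spread between pups of a genotype, so this share is not the recovery to be had in the real pups.

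Among the controls, Tex15WT 9 stood slightly lower than the others in this locus. It was the lowest of the 4 controls in 51 of the 63 tested deep tiles outside the domain (81.0%), whereas over the tested tiles of the table without ties it was the lowest in 34.4%. The tiles of the table are far shallower, with a median of 2.88 calls per cytosine against 53.9 in the deep tiles of the locus. Counting error thus weighs more in the 34.4%. Equally deep tiles elsewhere were not counted, so whether this order is particular to the locus is not known. The choice of the locus did not use the order of the controls, and this was noticed in the data and not tested. Tex15WT 8, of the same genotype, was the highest of the controls in 32 of these tiles.

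The domain was set beside the tiles most like it in depth, CpG content and level. Outside the locus, 339 tested tiles were as deep (at least 5 times the median depth per cytosine), and both Tex15KO pups lay below all controls in 57 of them (16.8%) and by more than 30 points in 10. Of 162 such deep tiles with every control between 50 and 90%, 33 were below and 10 by more than 30 points, with a median difference of -0.169 points and a 5th percentile of -49.6. Of 201 tiles with 20 or more CpGs and every control between 50 and 90%, 41 were below and 14 by more than 30 points, with a median difference of -1.20 points and a 5th percentile of -56.5. All 3 tiles of the domain meet the depth and level limits, with differences of -50.7, -44.8 and -41.3 points, and only the middle one holds 20 or more CpGs. Larger decreases were found in both classes, down to -72.4 points among the deep tiles and -73.5 points among the CpG-rich ones.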

How the data were processed

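Genomic DNA of sorted germ cells from 6 pups was measured. The deposited table holds, per the file headers, raw counts for every CpG cytosine and sample (coverage, calls read as C, calls read as T). The build mm9 and the tools methylKit, BSMAP and Bismark are named in the submitters' processing notes without roles or versions. Not given in the sources used here are duplicate removal, the conversion rate and the treatment of reads with several genomic places, which bears directly on a repeated locus.

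Here a level is C calls over all calls, summed over strands in a CpG, a 1 kb tile or the locus. Tiles needed 3 CpGs and 10 calls in each sample. A deep tile had at least 5 times the median calls per cytosine of tested tiles. Library totals were 27495658 to 52935635 calls, and reads of 1 copy or PCR product are not independent. Each sample is 1 pup, and p-values measure the spread between pups. Tex15HT was tested against Tex15WT with edgeR 4.0.16 (glmQLFit, glmQLFTest; all 6 samples in 1 fit, Benjamini-Hochberg over 330110 tiles) in R 4.3.3, with limma 3.58.1 on log2 ratios (pseudocount 1) as the alternative; the method was tested on simulated data. Levels and call shares per sample used exact permutation tests. Python 3.11.15, pandas 2.3.3 and scipy 1.17.1 made the other values. RefSeq promoter sequences (GRCm38.p6) were placed on mm9 by CpG positions, kept with at least 6 matched CpGs, all table CpGs of the window matched and a next best place with under 60% as many; RefSeq coordinates are not converted. No mm9 annotation was used here.

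The members, tile lists and tests were chosen with earlier results of these data known. Tiles were named by rule: the 6 with most calls in the sample with fewest, the 5 largest decreases, the 3 largest increases and the neighbours of the 2 largest decreases; cytosines likewise (the 3 largest and 3 smallest decreases in the tile with the largest). The 3-tile domain, the tandem array, the low CpGs and the order of the controls were singled out after their values were seen.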

Additional observations from a re-analysis of the deposited data

How the results depend on the processing

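In the domain the difference between Tex15KO and the controls kept its direction and size in all 10 alternatives, which were added after seeing the data. It was -42.5 to -47.7 points with 1 sample left out, -42.6 on forward and -47.6 on reverse cytosines. The domain was delimited by this same difference, at more than 30 points, so leaving out 1 sample could not turn it. The other settings reuse the same calls, and nothing is read from this stability. The difference in locus level kept its sign with any 1 sample left out (-3.97 to -5.65 points). With each cytosine weighing the same it was -2.86, and the difference of the tile chr11:3098001-3099000 was 10.97 in place of 19.0. Without cytosines in the top 0.1% of coverage in any sample, the locus difference was 1.56. This leaves out 1185 of the 1335 cytosines and keeps shallow ones, so the turned sign is no check on the deep part. The difference between Tex15HT and Tex15WT over the locus ranged from -1.92 to 2.82 points with 1 sample left out, so it has no stable sign. Over the shallow cytosines alone it was -3.66. Tiles with both Tex15KO pups below all controls numbered 3 with 2 kb tiles and 3 at a margin of 30 points, and 5 to 18 with 1 sample left out (18 without Tex15KO 16, where the table's share was 19.1%). Tiles above numbered 24 with 500 bp tiles, 9 with 2 kb tiles, 0 at that margin and 14 to 27 with 1 sample left out (27 without Tex15KO 16 and 25 without Tex15KO 3, where the table's shares were 26.9 and 12.8%). Among named tiles, the sign of the difference changed with 1 sample left out in chr11:3032001-3033000 (-1.20 to 2.00; -0.443 without Tex15KO 16), chr11:3035001-3036000 (-5.34 to 4.50; 1.35 without Tex15WT 9) and chr11:3054001-3055000 (-23.2 to 5.16), and in the last also as a mean over cytosines (8.95). The cause was not tested. The mean difference in the share of calls in the locus kept its direction in each alternative. Over cytosines with a call in every sample the Tex15KO pups went opposite ways, with Tex15KO 16 highest of all pups (0.468%) and Tex15KO 3 lowest (0.195%). The direction in that setting thus rests on Tex15KO 3. Tiles called in Tex15HT against Tex15WT stayed at 0 with limma, with 30 calls and with any 1 sample left out. No paired analysis was made, since the labels do not say which pups were littermates. With 2 pups per group, the uneven coverage of Tex15KO 3 and unknown numbers of copies, single tiles of few CpGs are the least certain values.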
